A study of Rattus norvegicus with 6 samples.

Results

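Infarcted rat myocardium was set against sham-operated myocardium, to find the genes that stood on the same side of sham in every infarcted sample, whatever had been injected into the heart. The infarcted side held 3 of the study's 6 arrays. It comprised 1 array of infarcted myocardium injected with buffer (PBS), and 2 arrays of infarcted myocardium injected with stromal stem cells cultured from adipose tissue (ADSCs) that carried the iodine tracer 124I-HIB, numbered replicates 1 and 3 in the labels and called ADSC 1 and ADSC 3 here. The other side was 1 array of sham-operated myocardium. All came from Sprague Dawley rats aged 13 weeks, and the labels date all 4 myocardial arrays to day 21 after a sham operation, the infarcted ones included. The labels give neither the way the infarct was made, the part of the heart taken, the time of injection, nor whether each array is a separate animal or a pool. Of 27455 features on the array design (a named gene, or a probe without a gene name), the 16949 that were well above background on all 4 myocardial arrays were compared, 10444 of them named genes.

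After an infarct, dead heart muscle is replaced by a collagen scar, and the surviving muscle is stretched and overloaded. Stretched heart muscle is known to switch on early-response and stress genes, to make natriuretic peptides and to lower the enzymes of mitochondrial energy supply. Fibroblasts lay down and crosslink matrix, and leukocytes enter and later leave the tissue. In bulk tissue, fewer cells of a type and less RNA per cell cannot be told apart.

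Every level below is the log2 signal of a probe minus the 75th percentile of its own array, and every difference is an infarcted array minus sham on that scale, so that 1 is 2-fold. The 75th percentile was a signal of 1104 on the PBS array, 1266 on ADSC 1, 1050 on ADSC 3 and 762 on sham. The share of probes well above background was 67.1% on PBS, 67.7% on ADSC 1, 65.8% on ADSC 3 and 64.4% on sham. The number of arrays limits the precision: the 3 differences share 1 sham array, so any peculiarity of it enters all 3 the same way. All 15 measured markers of ventricular and general heart muscle (the ventricular list below) lay in the brightest of 4 equal groups of features by mean level. The groups were formed over the 4 arrays together and the list holds general heart muscle genes. So it does not tell ventricular from atrial muscle on a single array.

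In all, 64 features (0.378% of those tested) were at least 2-fold higher on all 3 infarcted arrays than on sham, and 44 (0.26%) were at least 2-fold lower. Among 16949 simulated features, 57 unchanged ones passed the same rule in either direction, against 108 features here. Named genes made up 26 of the higher and 20 of the lower features. Dim features were past 2-fold more often. Of 4 equal groups by mean level, the dimmest had 0.802% past 2-fold in either direction and the second 1.09%. The third had 0.378% and the brightest 0.283%. At 4-fold the counts were 8 higher and 6 lower. The gap between sham and the nearest infarcted array was wider than the whole range of the 3 infarcted arrays for 51 of the 64 higher and 42 of the 44 lower features. These features were chosen by a gap of at least 1, and the median SD between the infarcted arrays was 0.15 over all features. The count is therefore largely set by the choice and is no separate evidence. The PBS array was the highest of the infarcted arrays for 30 of the 64 higher features, and the lowest for 15 of the 44 lower ones. Without ADSC 1, 119 features were 2-fold higher on both remaining infarcted arrays, a count that leaving out an array could only keep or raise. Under normexp background correction 24 features were higher and 21 lower on all 3. The members nearest the threshold had a smallest difference of 1.00 (higher) and -1.01 (lower), and those just outside it 0.999 and -0.998.

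**Figure D1:**
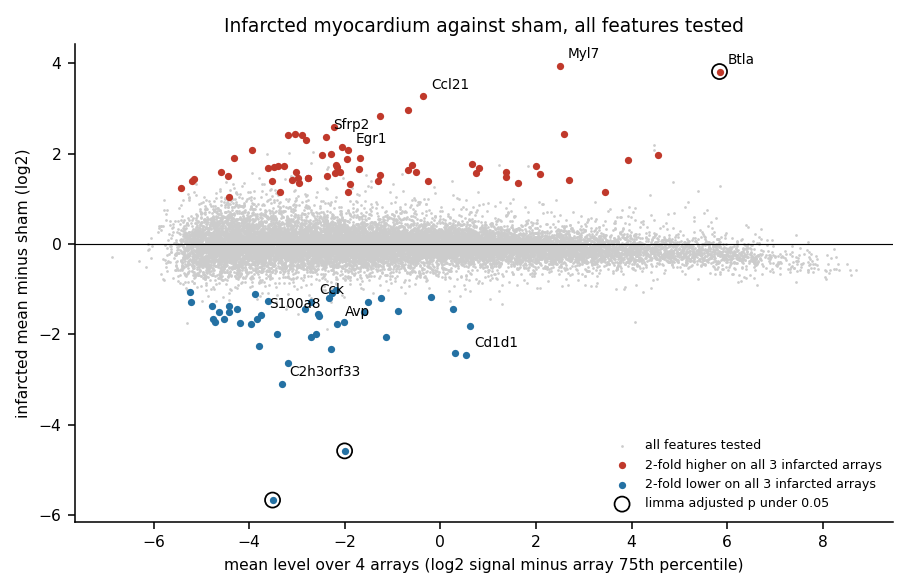
The mean of the 3 infarcted arrays minus sham (log2, vertical) is plotted against the mean level over the 4 arrays (log2 signal minus array 75th percentile, horizontal) for the 16949 features tested, with the 64 higher features in red, the 44 lower in blue and the 3 that passed limma circled. Most features lie near 0, Btla lies far above at a high level, and the brightest features tend to lie slightly below 0.

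Tested with limma over all 16949 features, 3 (0.0177%) passed a Benjamini-Hochberg adjusted p of 0.05, and 1473 had an unadjusted p under 0.05. The spread in this test came from the 3 infarcted arrays alone, and the lone sham array was assumed to vary like them, so each p-value reflects the scatter of these 3 samples, which may be technical. The only named gene among the 3 was Btla, an inhibitory receptor of lymphocytes. Btla read 6.72 on PBS, 6.82 on ADSC 1 and 6.84 on ADSC 3, against 2.98 on sham. It rose 14.1-fold in infarcted myocardium (mean difference 3.82 ± 0.07, SD of the 3 infarcted arrays, limma adjusted p = 0.0144). The 3 infarcted arrays lay close together and far from sham. Of the 14 measured T and NK cell markers, 11 were lower on all 3 infarcted arrays, against 35.0% of all features. On sham the 2 spots of the bright Btla probe read 2.30 and 3.65. A second Btla probe, with 1 spot, was well above background on 2 of the 4 arrays and read the other way, at -6.16 on PBS, -5.48 on ADSC 1 and -5.51 on ADSC 3, against -5.01 on sham. The difference therefore holds for 1 of the 2 Btla probes. Without ADSC 1 the bright probe's adjusted p was 0.310, and without ADSC 3 it was 0.174, with no feature passing in either case. Over the alternatives run for this gene it ranged from 0.00152 to 0.310, and it was above 0.05 also under the 2 wider filters on dim probes (0.0803 and 0.102).

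The 2 unnamed features that fell are probes A_64_P044832 and A_64_P030834. The first read -4.65 on PBS, -5.12 on ADSC 1 and -5.02 on ADSC 3, against 0.74 on sham (mean difference -5.67 ± 0.25, limma adjusted p = 0.0144). The second read -2.87, -3.26 and -3.32 on the same infarcted arrays, against 1.43 on sham (mean difference -4.58 ± 0.24, limma adjusted p = 0.0255). Both lay above the 75th percentile on sham and far below it on every infarcted array. No gene is given for either probe in the sources used here.

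Egr1, an early-response zinc-finger transcription factor induced by stretch and growth factors, stood out among the higher genes with known roles in stressed heart muscle. Its level was -1.21 on PBS, -1.90 on ADSC 1 and -1.15 on ADSC 3, against -3.49 on sham. All 3 infarcted arrays were higher, on average 4.19-fold (mean difference 2.07 ± 0.42, limma adjusted p = 0.306). Egr1 is induced through serum response factor, which binds CArG boxes, and its RefSeq promoter is shown because it was the only one of the 36 promoters available for the 46 named 2-fold genes that holds a CArG box. The window runs from 250 bases before to 50 after the gene's start, at chr18:26736828-26737127 on the plus strand of GRCr8, with the 2 CArG boxes in capitals.
Egr1: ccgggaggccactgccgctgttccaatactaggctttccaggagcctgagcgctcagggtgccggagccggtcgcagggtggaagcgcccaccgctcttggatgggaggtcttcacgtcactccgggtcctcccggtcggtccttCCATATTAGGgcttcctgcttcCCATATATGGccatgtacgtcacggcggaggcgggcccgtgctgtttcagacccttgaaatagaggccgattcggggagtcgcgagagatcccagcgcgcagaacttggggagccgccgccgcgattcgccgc
Searched on both strands, a CArG box was present in 451 of 27457 RefSeq promoters of this length (1.64%). The matches are a description of the letters in this window.

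The immediate early list, which includes Egr1, tended to the same side. Of 26 measured members of the immediate early list, 15 were higher and 4 lower on all 3 infarcted arrays, against 24.4% higher and 35.0% lower among all features tested. The list's median difference was 0.23, beside -0.05 for all features, and no member passed limma. Without PBS 15 were higher and 8 lower, counts that leaving out an array could only keep or raise. Under normexp 11 were higher and 7 lower. Junb, an AP-1 subunit, read 2.30 on PBS, 2.09 on ADSC 1 and 2.64 on ADSC 3, against 1.47 on sham. Klf10, a TGF-beta inducible repressor, differed by 0.84, 0.76 and 0.72 on the same arrays, and Atf3, a stress-induced transcription factor, by 0.66, 0.56 and 0.65. The 3 infarcted arrays agreed closely for both genes, although each difference is under 2-fold. Of the 19 measured members with a promoter entry, 4 hold a CArG box, namely Egr1, Klf6 and Zfp36, which were higher on all 3 arrays, and Dusp5, which was lower.

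Several higher genes encode secreted proteins of the matrix and its signals. Sfrp2, a secreted Wnt modulator made by fibroblasts, read -0.48 on PBS, -2.43 on ADSC 1 and -2.52 on ADSC 3, against -4.18 on sham, a mean of 5.18-fold (difference 2.37 ± 1.15, limma adjusted p = 0.556). The PBS array stood well above both ADSC arrays, which in turn stood above sham. Thbs4, a matricellular thrombospondin of stressed heart, read -1.02 on PBS, -1.96 on ADSC 1 and -2.95 on ADSC 3, against -3.95 on sham. Csrp2, a LIM protein of smooth muscle that is not secreted, was measured by 10 spots. Its levels were 1.71, 0.68 and 0.98 on the same infarcted arrays, against -0.44 on sham. For Thbs4 the spread among the infarcted arrays (SD 0.96) was nearly as large as the smallest difference from sham (1.00), whereas for Csrp2 it was about 0.53. Tgfb2, a TGF-beta ligand, differed by 1.83 on PBS, 1.27 on ADSC 1 and 0.92 on ADSC 3, and Ccn2, a matricellular target of TGF-beta, by 1.30, 1.13 and 0.61. Angptl4, a secreted inhibitor of lipoprotein lipase, read -0.84 on PBS, -1.39 on ADSC 1 and -1.64 on ADSC 3, against -2.94 on sham (mean 3.15-fold, limma adjusted p = 0.415). Its 2 sham spots read -3.69 and -2.20, both below every infarcted array.

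In each of the 4 lists for these processes the median difference was largest on the PBS array. Over all features tested, 24.4% of features were higher and 35.0% lower on all 3 arrays. Of 20 measured matrix turnover and crosslinking genes, 9 (45.0%) were higher on all 3 arrays and 0 lower, with a median difference of 0.14. Without PBS 10 were higher and 5 lower. In any list, leaving out an array could only keep or raise both counts. P4ha2 and P4ha1, prolyl hydroxylases of collagen, and Serpinh1, the collagen chaperone, were among the higher genes at 0.26 to 0.45 on average. Of 26 fibrillar matrix genes, 9 (34.6%) were higher and 3 lower on all 3 arrays, and the list's median difference was 0.38 on PBS, -0.13 on ADSC 1 and 0.05 on ADSC 3. Fmod, a small proteoglycan that binds collagen, differed by 3.28 on PBS, 0.24 on ADSC 1 and 1.09 on ADSC 3. For the Wnt ligands and antagonists 7 of 12 measured genes were higher and 2 lower (4 and 3 under normexp), and for TGF-beta and BMP signalling 8 of 25 (32.0%) were higher and 4 lower. Without the PBS array, 10 of 26 fibrillar matrix genes were higher and 10 lower on both remaining arrays. The matching counts for TGF-beta and BMP signalling were 10 and 10 of 25. Under normexp background correction that list had 6 higher and 8 lower.

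Fibroblast markers showed no common direction: 1 of 11 measured was higher on all 3 arrays, 1 was lower and 9 were mixed. Their summed signal, in multiples of the 75th percentile, was 129 on PBS, 90.4 on ADSC 1 and 113 on ADSC 3, against 120 on sham. Acta2, smooth muscle actin, read -0.05 on PBS, -1.34 on ADSC 1 and -0.59 on ADSC 3, against -1.99 on sham, and Itga8, an integrin of contractile stroma, differed by 1.91, 0.43 and 1.00. Of 9 smooth muscle and myofibroblast markers, 2 were higher and 1 lower on all 3 arrays. Chad, a cartilage matrix protein, differed by 2.68, 0.90 and 0.41, and of 4 measured chondrocyte markers 3 were higher, while Acan, Matn1, Cnmd and Col11a1 were not well above background on any array. The part of these cells in the matrix differences was not tested.

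The wall stress and fetal program list also leaned to the higher side. Of its 16 measured genes, 9 (56.25%) were higher and 1 (6.25%) lower on all 3 infarcted arrays, against 24.4% and 35.0% of all features tested. The median difference was 0.26. Without ADSC 1 the counts were 9 and 6, and leaving out an array could only keep or raise them. Myh7, a myosin heavy chain of this list, had a mean difference of -0.12 on the main scale and 0.34 under quantile normalization. Nppa, the atrial natriuretic peptide, read 6.51 on PBS, 5.14 on ADSC 1 and 3.37 on ADSC 3, against 2.82 on sham. Myl7, the atrial regulatory myosin light chain, read 7.62 on PBS, 2.03 on ADSC 1 and 0.84 on ADSC 3, against -0.45 on sham (mean difference 3.95 ± 3.62, limma adjusted p = 0.666). Both genes stood in the order PBS, ADSC 1, ADSC 3 and sham, and for Myl7 the spread among infarcted arrays nearly equalled the mean difference. Of the 5 measured atrial markers 3 were higher and 1 lower on all 3 arrays. Their summed signal was 448 on PBS, 183 on ADSC 1 and 157 on ADSC 3, against 185 on sham. The part of atrial tissue in these differences was not tested.

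**Figure D2:**
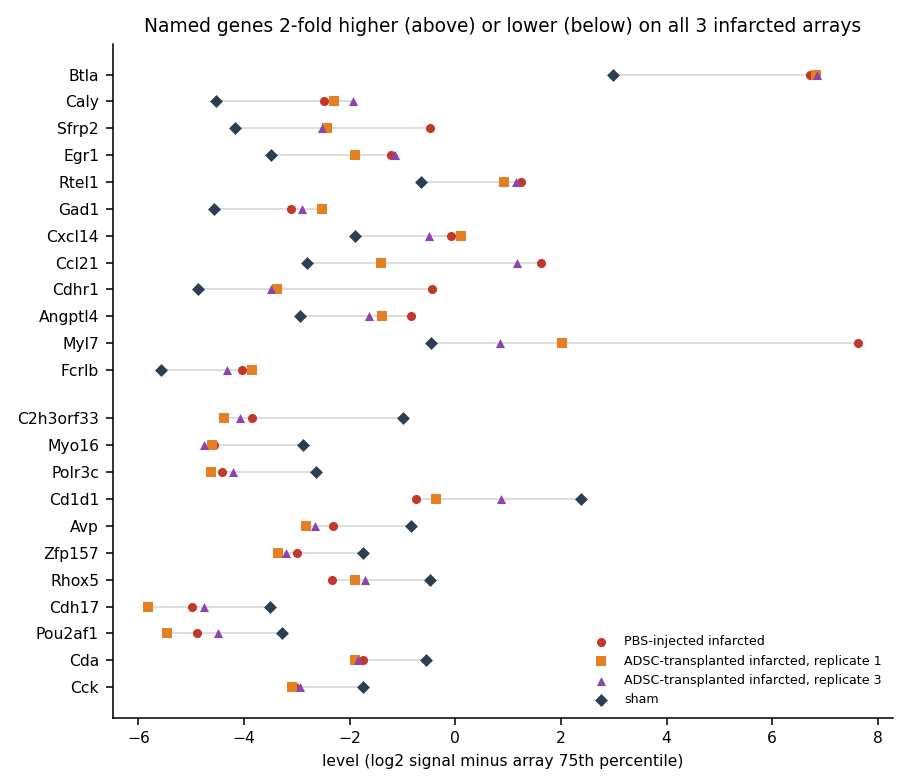
Levels (log2 signal minus array 75th percentile, horizontal) of named genes that were 2-fold higher (above) or lower (below) on all 3 infarcted arrays, with 1 symbol for each array: PBS, ADSC 1, ADSC 3 and sham. Sham lies outside the infarcted arrays for every gene shown; Btla, Rtel1, Cda and Cck have tight infarcted arrays, while Myl7, Sfrp2 and Cdhr1 are set apart by PBS.

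Of 34 measured chemokine and cytokine genes, 3 were 2-fold higher and 1 was 2-fold lower on all 3 arrays. At any size 10 were higher (29.4%) and 9 lower (26.5%), near the 24.4% and 35.0% of all features, with a median difference of -0.06. Cxcl14, which attracts monocytes and dendritic cells, read -0.09 on PBS, 0.12 on ADSC 1 and -0.50 on ADSC 3, against -1.90 on sham (mean 3.34-fold, limma adjusted p = 0.304). Ccl21, the CCR7 ligand of lymphatic vessels, read 1.62 on PBS, -1.41 on ADSC 1 and 1.18 on ADSC 3, against -2.80 on sham. Cxcl13, the B cell attractant, read -1.69, -2.97 and -3.19 on the infarcted arrays, against -4.21 on sham. Cxcl14 was similar on the 3 infarcted arrays, whereas Ccl21 was lower on ADSC 1 and Cxcl13 higher on PBS. Ccl21 has close relatives in the rat genome that its probe may also read. The other lymphatic endothelial markers differed less, with Pdpn at 1.24, 0.09 and 0.54 and Flt4 at 0.13, 0.03 and 0.12. With Ccl21 counted, 3 of 4 measured markers were higher on all 3 arrays.

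Cxcl11, an interferon-induced T cell attractant, read -0.70 on PBS, -0.38 on ADSC 1 and -0.38 on ADSC 3, against 0.69 on sham (mean difference -1.18 ± 0.19, limma adjusted p = 0.347). Of the interferon response list, 20 of 28 measured genes were lower on all 3 infarcted arrays and 2 were higher, against 35.0% lower and 24.4% higher among all features, and the list's median difference was -0.29. Isg15, a ubiquitin-like modifier, read 0.63 on PBS, 0.86 on ADSC 1 and 0.96 on ADSC 3, against 1.53 on sham. The infarcted arrays lay closer to each other than to sham, and Isg15 did not pass limma. Under quantile normalization 17 of the 28 were lower on all 3 arrays and 2 higher, with a median of -0.26.

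Interferon-induced genes are commonly switched on through a response element read by factors of the IRF family. The promoter of Oas1a, which makes the activator of RNase L, is shown because this gene was lower on all 3 arrays by -0.91, -0.75 and -0.49 and holds overlapping copies of the element close to its start. The RefSeq window lies at chr12:41330216-41330515 on the plus strand of GRCr8, with the 2 overlapping matches to GAAANNGAAA in capitals.
Oas1a: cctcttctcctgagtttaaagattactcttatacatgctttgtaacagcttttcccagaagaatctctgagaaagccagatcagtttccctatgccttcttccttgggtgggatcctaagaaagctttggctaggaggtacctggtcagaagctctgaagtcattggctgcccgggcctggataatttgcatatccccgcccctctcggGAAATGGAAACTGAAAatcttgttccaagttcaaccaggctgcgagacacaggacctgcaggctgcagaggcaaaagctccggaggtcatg
Searched on both strands, GAAANNGAAA was present in 1034 of 27457 RefSeq promoters (3.77%), in 15 of the 21 interferon list members with an entry, and in 10 of the 14 that were lower on all 3 arrays. It was also present in 4 of 5 members with mixed directions.

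Leukocyte lists differed in direction. Of 14 measured T and NK cell markers, 11 (78.6%) were lower and 1 higher on all 3 infarcted arrays, with a median of -0.41. Among all features 35.0% were lower and 24.4% higher. Of 3 measured B and plasma cell markers 1 was lower and 0 higher. Gzma, a granzyme of killer cells, read -4.23 on PBS, -4.87 on ADSC 1 and -5.08 on ADSC 3, against -3.49 on sham, and Gzmb differed by -1.19, -0.68 and -0.66. Gzmc, another granzyme, read -1.52, -1.40 and -0.89 on the infarcted arrays, against 0.23 on sham, and a second Gzmc probe well above background on all 4 arrays gave a mean difference of -1.42 against -1.50 for the brighter one. The list was low in level, as its members summed to 2.32 on PBS, 2.27 on ADSC 1 and 2.44 on ADSC 3, against 2.97 on sham, and Cd5, Klrb1 and Cd28 were not well above background on any array. Its direction was the same under quantile normalization (11 lower, 1 higher) and in the authors' deposited value table (10 and 1). Under normexp 14 were lower and 0 higher, but there lower features outnumbered higher ones over all features too.

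S100a8, a calcium-binding protein of neutrophils and monocytes, read -4.12 on PBS, -4.66 on ADSC 1 and -3.67 on ADSC 3, against -2.57 on sham, and its partner S100a9 differed by -1.40, -1.86 and -0.86. Lcn2, another neutrophil gene, went the other way at 0.23, 0.58 and 0.75, and Elane, Ngp, Cxcr2 and Mmp8 were not well above background on any array. Macrophage markers showed no common direction, with 3 of 12 higher and 3 lower. Cd1d1, a lipid antigen-presenting molecule measured by 10 spots, read -0.75 on PBS, -0.36 on ADSC 1 and 0.87 on ADSC 3, against 2.38 on sham (5.51-fold higher in sham, limma adjusted p = 0.498). Of 17 antigen presentation genes, 9 were lower and 4 higher on all 3 arrays, RT1-A2, a class I molecule with close relatives, being higher by 0.32, 0.73 and 0.77. Cma1, the chymase of mast cells, read -1.70 on PBS, -1.43 on ADSC 1 and -1.53 on ADSC 3, against -2.89 on sham (mean difference 1.33 ± 0.13, limma adjusted p = 0.260). Of the 6 measured mast cell markers 4 were higher and 1, Kit, was lower. All these counts stand beside 24.4% higher and 35.0% lower among all features. Under normexp, where lower features outnumbered higher ones, 1 mast cell marker was higher and 1 lower.

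Erythroid genes, which mark blood in the tissue, were lower in part. The 7 measured erythroid genes included 4 lower and 0 higher on all 3 infarcted arrays, led by the haemoglobin genes Hbb (-0.85, -1.13 and -0.58) and Hba-a1 (-0.80, -0.52 and -0.36). Among all features 35.0% were lower and 24.4% higher, against 4 (57.1%) and 0 of these 7 genes. Their summed signal was 389 on PBS, 417 on ADSC 1 and 509 on ADSC 3, against 689 on sham. Since blood also carries leukocytes, this stands beside the lower T cell, NK cell and neutrophil genes, and its part in them was not tested.

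Genes of muscle contraction and mitochondria were mostly lower on the main scale, by less than 2-fold, and this depended on how the arrays were scaled. Of 34 respiratory chain genes 29 were lower and 0 higher on all 3 infarcted arrays (median -0.31), as were 24 of 34 mitochondrial ribosome genes (1 higher, median -0.23), 13 of 15 ventricular muscle markers (1 higher, median -0.42) and 12 of 19 sarcomere genes (2 higher, median -0.26). Fabp3, which carries fatty acids to mitochondria, read 6.44 on PBS, 6.66 on ADSC 1 and 6.55 on ADSC 3, against 7.22 on sham. Tnnt2, cardiac troponin T, read 8.09, 7.84 and 7.95 on the infarcted arrays, against 8.60 on sham. Cox8b, a subunit of cytochrome oxidase, differed by -0.69, -0.65 and -0.51, and Suclg1, of the citrate cycle, by -0.79, -0.80 and -0.64. Each of these lay below sham on every infarcted array, and none passed limma.

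All 34 respiratory chain genes and all 15 ventricular markers lie in the brightest of the 4 groups by level, where 50.2% of all features were lower on all 3 arrays, against 27.5% in the dimmest group. Under quantile normalization the respiratory chain had 14 lower and 2 higher (median -0.08), the ventricular markers 3 lower and 5 higher (median 0.01), the sarcomere genes 3 lower and 6 higher, and the mitochondrial ribosome 19 lower and 1 higher (median -0.15). So the direction of the ventricular list turned and that of the mitochondrial ribosome did not. Over all features, 4143 were higher and 5940 lower on the main scale, against 4724 and 4972 under quantile normalization, 2373 and 8803 under normexp, and 4690 and 4621 in the authors' deposited table.

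**Figure D3:**
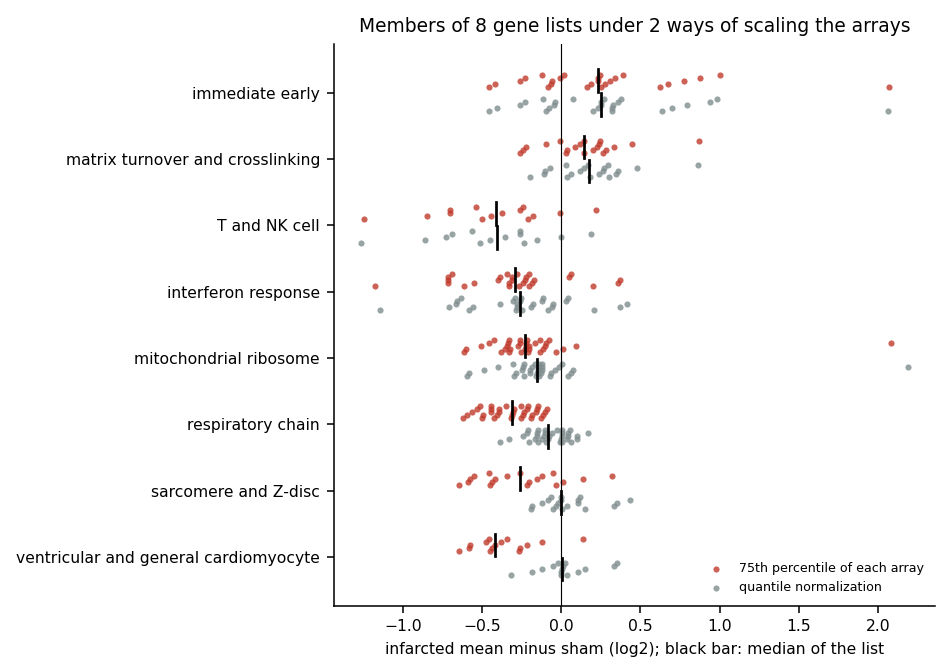
Each point is the mean of the 3 infarcted arrays minus sham (log2, horizontal) for a member of 8 gene lists (rows), scaled by each array's 75th percentile (red) or by quantile normalization (grey), with the list's median as a black bar. The ventricular list's median is -0.42 under the first and 0.01 under the second, while the T and NK cell and interferon response lists stay below 0 and the immediate early list above 0 under both.

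Some metabolic genes stood against their lists. Ucp3, a mitochondrial carrier induced by fatty acids, read -1.64 on PBS, -1.32 on ADSC 1 and -1.32 on ADSC 3, against -2.51 on sham. Pdk4, the kinase that shuts pyruvate out of mitochondria, read -2.30, -2.54 and -2.43 on the infarcted arrays, against -3.29 on sham. Slc2a1, the insulin-independent glucose transporter GLUT1, read 0.39, 0.77 and 0.75, against -0.35 on sham. For each of these 3 genes the infarcted arrays lay closer to each other than to sham, and the limma adjusted p-values were 0.371 for Ucp3, 0.400 for Pdk4 and 0.453 for Slc2a1. Of 31 fatty acid oxidation genes 4 were higher and 16 lower, and of 33 glycolysis and citrate cycle genes 1, Slc2a1, was higher and 20 were lower. Of these lists 24 and 28 genes lay in the brightest of the 4 groups by level, where 50.2% of all features were lower. Mrpl10, of the mitochondrial ribosome's large subunit, was higher by 0.75 on PBS, 2.67 on ADSC 1 and 2.83 on ADSC 3, unlike the rest of its list. Among channel genes, Kcnv2, a modifier subunit of potassium channels, was lower by -1.61, -2.31 and -0.71, while 7 of 24 genes of that list were higher and 7 lower.

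**Figure D4:**
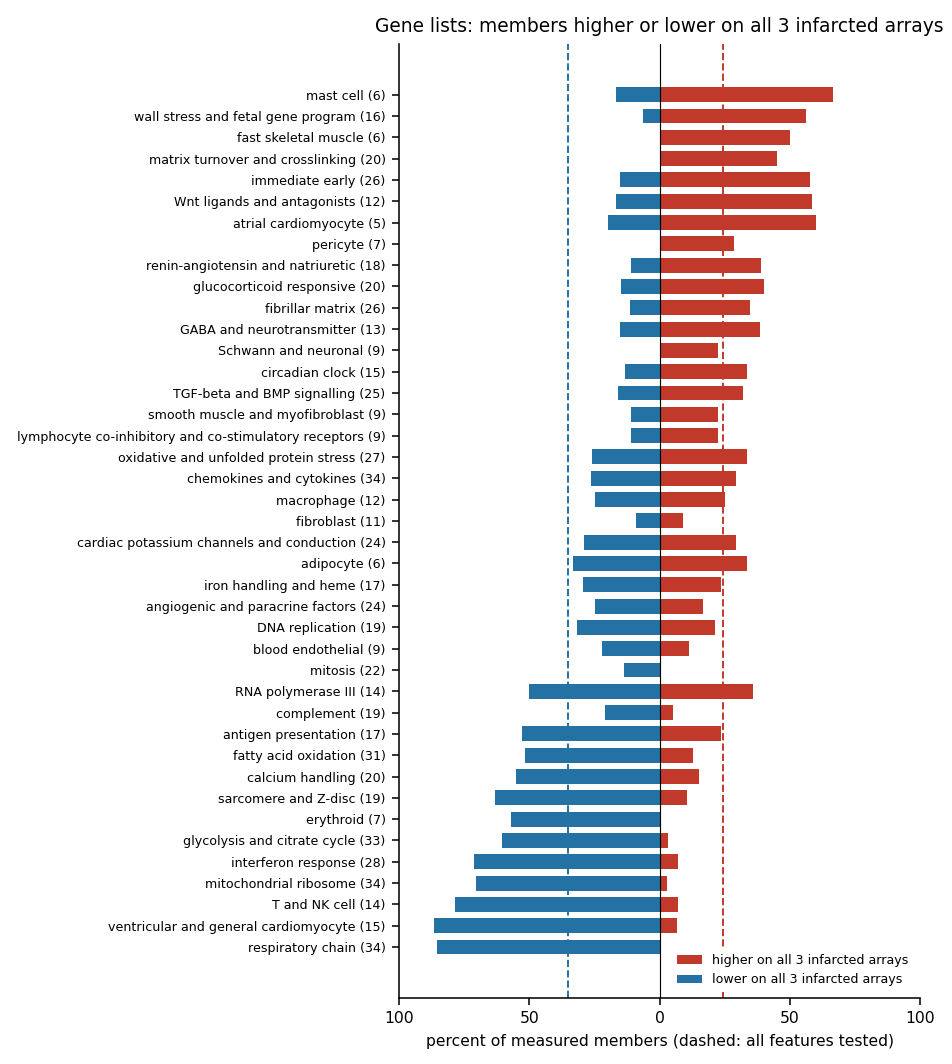
For each gene list with 5 or more measured members (number in brackets), bars give the percentage of those members that were higher (red, right) or lower (blue, left) on all 3 infarcted arrays than on sham, and dashed lines give the same over all features tested, 24.4% and 35.0%. The respiratory chain, ventricular, T and NK cell, mitochondrial ribosome and interferon response lists lie furthest to the lower side. The mast cell, fast skeletal muscle, wall stress, matrix turnover, immediate early, Wnt and atrial lists lie furthest to the higher side.

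Caly, an endocytic adaptor of neurons, read -2.48 on PBS, -2.30 on ADSC 1 and -1.93 on ADSC 3, against -4.53 on sham (mean 4.91-fold, limma adjusted p = 0.154). Gad1, which makes GABA from glutamate, read -3.11, -2.52 and -2.91 on the infarcted arrays, against -4.56 on sham. For both genes the infarcted arrays lay closer to each other than to sham. Nnat, a small membrane protein of developing brain, differed by 2.68, 1.13 and 1.33, and Cdhr1, a photoreceptor cadherin measured by 10 spots, by 4.42, 1.49 and 1.38, with PBS the highest for both. Of 9 Schwann and neuronal markers 2, Gap43 and Sox10, were higher on all 3 arrays and 0 lower, with 0 past 2-fold. Of 13 GABA and neurotransmitter genes 5 were higher and 2 lower (38.5% and 15.4%), against 24.4% and 35.0% of all features.

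In the other direction, Avp, the vasopressin precursor measured by 10 spots, read -2.32 on PBS, -2.83 on ADSC 1 and -2.66 on ADSC 3, against -0.84 on sham (mean difference -1.76 ± 0.26, limma adjusted p = 0.280). Cck, the cholecystokinin precursor, read -3.04, -3.08 and -2.94 on the infarcted arrays, against -1.74 on sham. Chrnd, the delta subunit of the muscle acetylcholine receptor, differed by -1.18, -1.09 and -1.05. Cck and Chrnd were nearly equal on the 3 infarcted arrays and below sham on each. Of the 18 measured genes of the renin-angiotensin and natriuretic list, which holds Avp, 7 (38.9%) were higher and 2 (11.1%) lower. Among all features these shares were 24.4% and 35.0%.

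The lower genes of the cell nucleus and of other functions were mostly dim. C2h3orf33, a gene of little-known function read by 1 spot, was at -3.85 on PBS, -4.38 on ADSC 1 and -4.07 on ADSC 3, against -0.999 on sham (8.58-fold higher in sham, limma adjusted p = 0.0612). Myo16, an unconventional myosin, read -4.56, -4.60 and -4.75 on the infarcted arrays, against -2.89 on sham (limma adjusted p = 0.102). Cda, a cytidine deaminase that salvages pyrimidines, was measured by 10 spots and read -1.76, -1.90 and -1.85, against -0.55 on sham. For all 3 the infarcted arrays lay together, well below sham. Polr3c, a subunit of RNA polymerase III, differed by -1.78, -1.98 and -1.56, but its 2 sham spots read -4.15 and -1.13. Polr3k and Polr3b, of the same polymerase, had mean differences of -0.76 and -0.56. Of 14 measured RNA polymerase III genes 7 were lower and 5 higher, against 35.0% and 24.4% of all features. Zfp157, a zinc-finger gene whose sham spots read -3.28 and -0.22, Rhox5, a homeobox gene of the X chromosome, Cdh17, an intestinal cadherin, and Pou2af1, a B cell coactivator, had smallest differences of -1.24, -1.24, -1.24 and -1.22. A dim 1-spot probe of Pou2af1, not well above background on any of the 4 arrays, gave a mean difference of 0.38, and a dim 2-spot probe -0.52. Trim23, Fcgr3a, Mrpl52 and Galnt13 completed the reported lower genes, with mean differences of -1.26, -1.06, -1.08 and -1.02.

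Among the remaining genes 2-fold higher on all 3 arrays was Rtel1, a helicase that unwinds telomere ends. It read 1.25 on PBS, 0.92 on ADSC 1 and 1.16 on ADSC 3, against -0.66 on sham (mean difference 1.77 ± 0.17, limma adjusted p = 0.154). Its second probe was not well above background on any of the 4 arrays. Fcrlb, an Fc receptor-like protein of B cells, differed by 1.53, 1.71 and 1.25, but its 2 spots on ADSC 1 read -5.37 and -2.33, and the lower of them lay within the sham spots, at -5.92 and -5.21. Srms, Ttll9, RGD1562890, Alpi, C15h14orf93, Hao1 and the olfactory receptor genes Or1p1 and Or4c122 had mean differences of 1.04 to 1.67 and lay below the 75th percentile on every array. Second probes of Gad1, Nnat and Alpi, not well above background on any of the 4 arrays, had mean differences of -0.60, -0.36 and -0.16, opposite to the brighter probe.

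Some genes were measured on one side only, where a bound replaces the fold. Of 191 named genes well above background on all 3 infarcted arrays and not on sham, 59 had a bound of 2-fold or more, and of 97 measured on sham and on no infarcted array, 47 did. For a bound, the mean of the bright side was divided by a floor for the dim side, which is the faintest signal called well above background on that array, or the probe's own signal if brighter. The bound holds only against that floor. Il1a, the alarmin cytokine interleukin 1 alpha, was at least 6.61-fold higher by the mean of the infarcted arrays. It read -2.48 on PBS, -5.20 on ADSC 1 and -3.98 on ADSC 3 against a measured -6.61 on sham. On ADSC 1 alone its log2 bound was 1.42. A second Il1a probe, with 1 spot, was not well above background on any of the 4 arrays and differed by 1.67, -0.33 and 1.64. By the same mean Rab15, a trafficking GTPase, was at least 9.21-fold higher and Wfdc6a at least 6.13-fold. The retinol carrier Rbp4 was at least 5.52-fold higher and Nkd1, an inhibitor of Wnt signalling, at least 4.93-fold. The smallest log2 bound on a single infarcted array was 1.41 for Rab15, 2.05 for Wfdc6a, 1.30 for Rbp4 and 1.53 for Nkd1. For Rab15 and Rbp4 the PBS array set most of the mean, since Rab15 read 0.94 on PBS, -4.29 on ADSC 1 and -4.15 on ADSC 3.

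On the lower side, Lrr1, part of the ubiquitin ligase that unloads the replication helicase, was at least 44.3-fold lower, at a measured -8.07 on PBS, -8.20 on ADSC 1 and -7.11 on ADSC 3 against -1.47 on sham. That bound rests on 1 spot, and a second Lrr1 probe with 2 spots was not well above background on any of the 4 arrays and differed by -0.27, 0.17 and 0.24. Fam228a was at least 10.8-fold lower, Gstt4, a glutathione transferase, at least 9.13-fold and Gabrb1, a GABA receptor subunit, at least 5.95-fold. Kcnk10, a background potassium channel, had a bound of 12.4-fold, but its 2 spots on sham disagreed with an SD of 5.22 on the log2 scale. With these dim features added to the fit, limma passed none of them: the adjusted p was 0.112 for Lrr1 and 0.0803 for Fam228a among features well above background on at least 1 array.

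The mitotic list showed where the infarcted arrays parted. Of 22 measured genes 0 were higher and 3 lower on all 3 arrays, because the list's median difference was -0.61 on PBS, 0.16 on ADSC 1 and 0.27 on ADSC 3. Complement genes likewise had 14 of 19 in mixed directions, with C4a at 4.02 on PBS, 0.44 on ADSC 1 and 0.78 on ADSC 3. Of 15 circadian clock genes 5 were higher and 2 lower, and of 20 glucocorticoid responsive genes 8 and 3. Of 27 oxidative and unfolded protein stress genes 9 were higher and 7 lower. Among all features 24.4% were higher and 35.0% lower. None of these lists had 2-fold members except Angptl4.

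Vessel and lining cells differed little in common. The counts here stand beside 24.4% higher and 35.0% lower on all 3 arrays among all features. Of 9 blood endothelial markers 1 was higher and 2 lower on all 3 infarcted arrays, and of 7 pericyte markers 2 were higher and 0 lower, Abcc9, a potassium channel subunit of pericytes, by 0.07, 0.39 and 0.40. Aldh1a2, the retinoic acid enzyme of epicardium, read -3.78 on PBS, -4.23 on ADSC 1 and -4.30 on ADSC 3, against -5.01 on sham, whereas Upk1b of the mesothelium was lower by -0.38, -1.07 and -0.40. Of 6 measured adipocyte markers 2 were higher and 2 lower, of 6 fast skeletal muscle markers 3 were higher and 0 lower, of 3 lung epithelial markers 2 were lower, and of 3 B and plasma cell markers 1 was lower. Calcium handling genes had 11 of 20 lower and 3 higher on all 3 arrays, Casq2, the calcium store protein of the sarcoplasmic reticulum, by -0.44, -0.54 and -0.68, and Fkbp1b, which steadies the ryanodine receptor, was higher by 0.74, 0.54 and 0.94. Of these 20 calcium handling genes, 10 lay in the brightest of the 4 groups by level, where 50.2% of all features were lower. Under quantile normalization 6 of the 20 were lower and 5 higher. Tfrc, the transferrin receptor, was lower by -0.68, -0.78 and -1.11, in an iron and heme list with 5 of 17 lower and 4 higher. Apln, the peptide apelin, was lower by -0.94, -0.65 and -0.40, in an angiogenic and paracrine list with 6 of 24 lower and 4 higher.

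Sham spots agreed less well with each other than those of the infarcted arrays. Among all 10449 features with several spots, the spots lay over 2-fold apart in 1.71% on PBS, 1.56% on ADSC 1, 1.45% on ADSC 3 and 3.24% on sham. Among the 29 higher features with several spots this was so for 0 on PBS, 1 on ADSC 1, 1 on ADSC 3 and 8 on sham, and among the 22 lower ones for 1, 1, 0 and 3. The named genes concerned on sham were Btla, Angptl4, Alpi, Hao1, Or1p1, Or4c122, Polr3c and Zfp157. Past 2-fold on all 3 arrays were 0.953% of unnamed features and 0.44% of named genes. Among named genes the share was 0.31% for those read by 1 spot, where spots cannot be compared, 0.464% for those with 2 spots and 0.515% for those with 10. Of the 1155 features with 10 spots, 3 were 2-fold higher and 3 lower, among them Cdhr1 and Csrp2 above sham and Cd1d1, Avp and Cda below it.

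**Figure D5:**
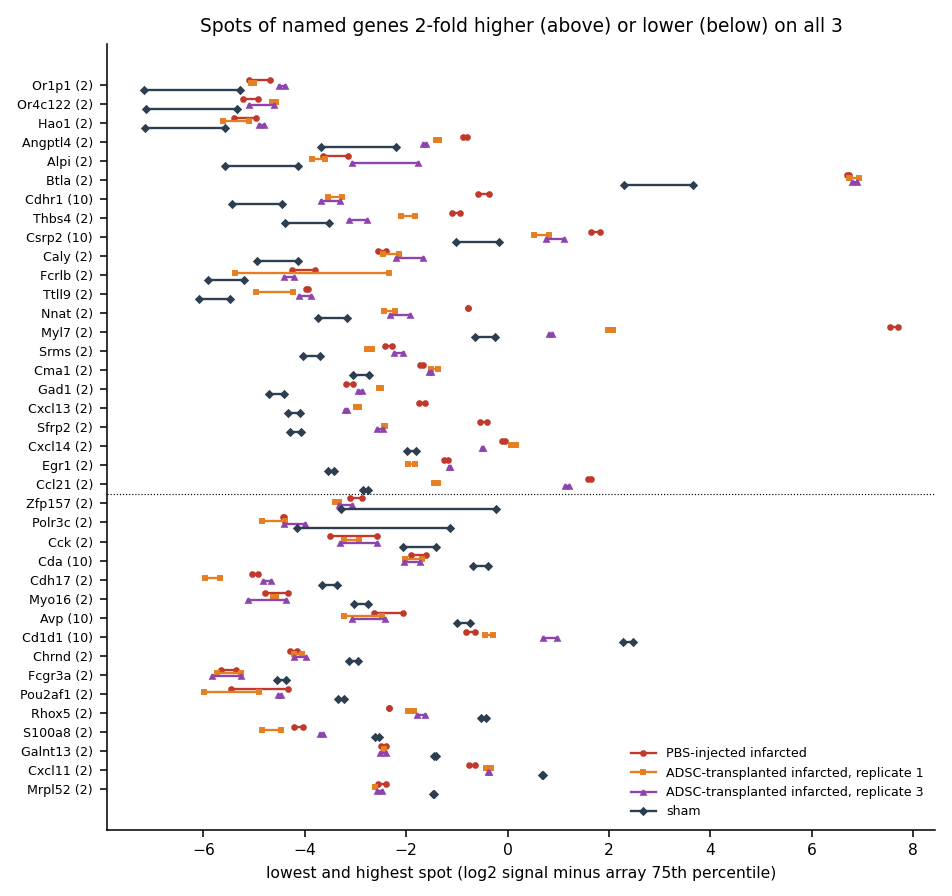
The lowest and the highest spot (log2 signal minus array 75th percentile, horizontal, joined by a line) are shown on PBS, ADSC 1, ADSC 3 and sham for named genes 2-fold higher (above the dotted line) or lower (below it) that have several spots (number in brackets). The sham lines of Polr3c (-4.15 to -1.13), Zfp157 (-3.28 to -0.22), Or1p1 and Or4c122 are long, while those of Egr1, Cxcl14, Ccl21, Cda, Cd1d1 and Cxcl11 are short.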

How the data were processed

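Total RNA from myocardium or cultured cells was column-purified and labelled with Cy3, per the labels' protocols. The authors deposited intensity values for the 58717 spots of each array. The submitters' processing notes name Agilent Feature Extraction 11.0.1.1 for them. A table of log2 values was also deposited; how it was made was not given in the sources used here. On the 4 myocardial arrays its columns correlate with log2 processed signal at r of 0.9998 or more and share 1 distribution, as quantile normalization gives. All arrays lay on 1 slide in 1 scan, so neither could be tested as a batch.

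Spots flagged as outliers and control spots were dropped, spots of a probe were averaged as log2 processed signal minus the array's 75th percentile, and the brightest probe stood for a gene. Names came from matching unversioned accessions to RefSeq (GRCr8, for names and promoter sequences; the file headers name rn4): 18355 of 30367 probes received one and 12012 did not. A probe counted as well above background unless most of its spots were not.

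The 3 infarcted arrays were set against sham by size (2-fold on all 3) and with limma 3.58.1 in R 4.3.3 (functions lmFit, then eBayes), with 2 residual degrees of freedom and Benjamini-Hochberg adjustment over 16949 features. The fit was tested on simulated data first. Among 16949 simulated features, 57 unchanged ones passed the 2-fold rule in either direction and 9 passed limma. Of 50 features given a log2 change of 1, the 2-fold rule recovered 26% and limma 6%. At a log2 change of 2 these were 96% and 88%. Figures were drawn with matplotlib 3.10.9. The members, the 19 marker lists and the 28 other lists were chosen with earlier results of these data known. Named genes were the 12 highest and 12 lowest by the smallest of the 3 differences, up to 5 each way measured on one side only, up to 10 each way passing limma, and up to 4 members of a list. Other genes past 2-fold are named to account for all of them, chosen after their values were seen. Some genes that the rule or the lists name are not reported here.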

Additional observations from a re-analysis of the deposited data

How the results depend on the processing

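No paired analysis was possible because the 2 sides share only replicate number 1 and sham is a single array. With an infarcted array left out, fewer arrays have to meet the 2-fold rule. The 2-fold counts could therefore only stay or rise. Leaving out each infarcted array in turn gave 83 to 119 features 2-fold higher, 60 to 66 lower, and 0 to 3 passing limma; the 119 came without ADSC 1, and the counts of 0 came without ADSC 1 (1415 at an unadjusted p under 0.05) and without ADSC 3 (905). The main counts were 64, 44 and 3. Under normexp background correction they were 24 higher, 21 lower and 13 passing limma. With features well above background on at least 1 array they were 210, 140 and 0 (1632 unadjusted), and with no filter on dim probes 260, 278 and 0 (2211 unadjusted). At 1.5-fold the counts were 265 higher and 187 lower, and at 3-fold 14 and 12. The authors' deposited table had 18 features passing limma, a trended and robust spread 19, a fit with 3 groups 8, and no adjustment 1473; the 3 main features were among the calls in each of the first 3, and under normexp. In alternatives chosen after seeing the data, features whose several spots agreed within 2-fold on every array gave 20 higher, 18 lower and 1 passing limma of 9860, and features with 10 spots 3, 3 and 0 of 1155 (89 unadjusted); these test fewer features by construction. Quantile normalization, median centring and the mean of a gene's probes kept all 3 counts within 1.5 times.

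Of 164 genes, 150 kept the sign of their mean difference under every alternative run. These genes were named for differences of 1 sign on all 3 infarcted arrays. Leaving out an infarcted array therefore could not turn their sign, and only the other alternatives could. Under normexp the sign turned for Flt4 (-0.080), Hdc (-0.14), Ckmt1 (-0.17), Col2a1 (-0.29), Gdf15 (-0.15), Wnt2b (-0.031), Bmal1 (-0.11), Per1 (-0.22) and Egf (-0.048). Under quantile normalization it turned for Mb (0.025), Myl4 (0.082) and Fth1 (0.092), in the authors' table for Myl4 (0.075), Atp2a2 (0.0041) and Fth1 (0.090), and with the mean of a gene's probes for Tpm1 (0.0090). Among 47 lists, 38 kept the sign of their median. The ventricular list turned under quantile normalization (0.0084) and in the authors' table (0.0041), and the sarcomere list in that table (0.0041). Under normexp the mast cell (-0.043), fast skeletal muscle (-0.023), chondrocyte (-0.018), Wnt (-0.0028), glucocorticoid (-0.019) and GABA and neurotransmitter (-0.018) lists turned. With the wider filter or none, fast skeletal muscle turned (-0.0068) and lung epithelial turned (0.31 and 0.11). Leaving out single arrays gave medians of -0.0062 (without ADSC 3) to 0.14 for the glucocorticoid list and -1.8e-05 (without PBS) to 0.074 for the GABA list. The cause was not tested. Signal over background limits the dim genes, and 1 sham array limits every difference.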

Other observations

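The 2 arrays of cultured ADSCs, carrying the tracer and unlabelled, were not part of the comparison. Of the 64 features higher in infarcted myocardium, 54 (84.4%) were well above background on both cell arrays, as were 34 of the 44 lower ones (77.3%), against 93.7% of all features tested. Angptl4, higher on all 3 infarcted arrays, read 3.58 in labelled and -1.67 in unlabelled cells, a difference between single arrays. Sfrp2, Cxcl14 and Thbs4 lay above the 75th percentile of both cell arrays, at 1.08, 3.02 and 1.89 in labelled cells and 1.36, 3.21 and 2.02 in unlabelled cells. Myl7, Ccl21, Gad1, Cma1 and Srms lay at -6.5 or below in both. The bright Btla probe read 0.42 in labelled and 0.58 in unlabelled cells.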
